A study of Mus musculus with 32 samples.

Results

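Mice respond to amino acid shortage, unfolded protein in the endoplasmic reticulum (ER) and oxidants through the integrated stress response, in which kinases phosphorylate the translation initiation factor eIF2. Most protein synthesis then slows while translation of the transcription factor ATF4 rises, and ATF4 switches on genes for amino acid synthesis, amino acid import and tRNA charging. The unfolded protein response runs beside it through ATF6, IRE1 and XBP1 and raises the chaperones of the ER. In adipose tissue and liver these programmes are known to react to overfeeding, fasting and inflammation.

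Described here are 10 genes of these programmes, taken from the 24646 named genes that each tissue's table held. They comprised the regulators *Atf4*, *Ddit3*, *Atf3* and *Trib3*, the ATF4 target *Asns*, the ER stress genes *Xbp1* and *Hspa5*, and the amino acid transport genes *Slc3a2*, *Slc7a11* and *Slc43a1*. They were chosen by name with the comparison of knockout and wild-type mice already known, in particular because *Slc3a2* and *Slc43a1* did not overlap between genotypes in any tissue. Their differences between genotypes are therefore given as a description, with limma's moderated standard error (SE), which draws each gene's variance towards that of all genes, and without a test.

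The mice were male C57BL/6J animals, either *Gpr146* whole-body knockout (KO) or wild-type (WT) littermates. GPR146 is a G protein-coupled receptor. All were 20 weeks old, had eaten a high-fat diet (HFD) for 3 months and were fasted overnight before collection, so that no lean, chow-fed or fed animals enter any comparison. The receptor was absent from all tissues of the KO mice throughout life, and no single tissue can be singled out as the place where it acted. RNA from liver, epididymal white fat (eWAT), inguinal white fat (iWAT) and brown fat (BAT) of 4 mice per genotype was read on Affymetrix Mouse Gene 2.1 ST arrays, 1 array per mouse and tissue and 32 arrays in all. Values are log2 expression. Each tissue came in a table of its own, and whether the tables share a scale is not given in the sources used here, so differences were taken only within a tissue. A gene is said to lie apart when all 4 KO mice were above, or all 4 below, all 4 WT mice.

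*Gpr146* itself lay apart below in all 4 tissues, with KO minus WT differences (log2 ± SE) of -1.77 ± 0.09 in liver, -1.53 ± 0.22 in eWAT, -1.55 ± 0.33 in iWAT and -1.16 ± 0.18 in BAT. It passed an adjusted p under 0.05 in liver (limma, adjusted p = 6.52e-06) and eWAT (limma, adjusted p = 0.00823). It did not in iWAT (limma, adjusted p = 0.221) or BAT (limma, adjusted p = 0.0725). Hepatocyte, adipocyte and brown adipocyte markers were above the array median in the tissues that the labels named. In eWAT, all 9 of 9 macrophage markers were lower in KO mice and lay apart. Their summed level on the log2 scale ran from 12.33 to 12.49 in WT mice and from 9.95 to 12.04 in KO mice. Of the 5 adipocyte markers 4 were higher and 1 lower there, of the erythroid markers 2 of 4 were higher, and of the mesothelial markers 2 of 4 were lower, with summed levels of 7.21 to 8.74 in WT and 6.49 to 7.02 in KO mice. In macrophage markers the KO mouse numbered 2 stood apart from the other KO mice, at 12.04 against at most 10.80. In bulk tissue, fewer cells of a type and less RNA per cell cannot be told apart. Macrophage markers had a median difference of -0.66 in liver and -0.86 in iWAT, where none was called and 1 of 9 lay apart below in each. In BAT the summed level of 5 brown adipocyte markers was 12.30 to 12.55 in WT mice and 12.05 to 12.25 in KO mice, with a median difference of -1.05 and 2 of 5 apart below. In iWAT the B cell markers ranged from 5.59 to 10.49 among WT mice and from 5.90 to 10.10 among KO mice. In BAT the skeletal muscle markers ranged from 5.46 to 10.72 and from 5.48 to 10.86.

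The promoters of the members were searched for sequences through which these programmes are known to act. RefSeq (build GRCm38.p6) gave a promoter of 250 bases before and 50 bases after the start for all 10 members. The C/EBP-ATF response element, searched on both strands as TGATGNAA, is the site type bound by ATF4 and occurred in 3.97% of 32851 promoters. Among members it was found in *Asns*, *Slc7a11*, *Atf3* and *Trib3*. The ER stress response element, CCAAT and CCACG with 9 bases between them, is bound by ATF6 with NF-Y and occurred in 0.119% of promoters, among members in that of *Hspa5*. The following 60-base windows lie before the start on the strand of the gene, with motif matches in capitals. In *Asns*, *Slc7a11* and *Atf3* these mark the C/EBP-ATF element, in *Hspa5* the ER stress response element and in *Slc43a1* an antioxidant response element (TGACNNNGC) on the opposite strand. *Slc3a2* and *Slc43a1* are shown because they lay apart in every tissue, and neither window holds a C/EBP-ATF or ER stress response element.
Asns (chr6:7693210-7693269, minus strand): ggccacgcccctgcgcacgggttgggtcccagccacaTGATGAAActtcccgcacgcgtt
Slc7a11 (chr3:50443637-50443696, minus strand): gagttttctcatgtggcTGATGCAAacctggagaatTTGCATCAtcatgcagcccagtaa
Atf3 (chr1:191183411-191183470, minus strand): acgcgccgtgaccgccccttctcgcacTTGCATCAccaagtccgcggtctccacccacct
Hspa5 (chr2:34772004-34772063, plus strand): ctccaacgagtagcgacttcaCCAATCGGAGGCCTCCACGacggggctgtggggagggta
Slc3a2 (chr19:8713898-8713957, minus strand): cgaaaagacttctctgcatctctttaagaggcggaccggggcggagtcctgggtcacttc
Slc43a1 (chr2:84840263-84840322, plus strand): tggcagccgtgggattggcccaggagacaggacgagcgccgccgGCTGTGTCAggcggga

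The C/EBP-ATF element of *Slc7a11* is present in both orientations within the window, and that of *Atf3* lies on the opposite strand. Of the 4 members with this element, *Asns* and *Atf3* lay apart in opposite directions in eWAT, *Slc7a11* lay apart below there and *Trib3* overlapped. The other motifs searched were the ATF6 and XBP1 site TGACGTGG, in 0.676% of promoters and in no member, and the antioxidant response element, in 12.4% of promoters and in those of *Asns* and *Slc43a1*. The C/EBP-ATF element was also found in 6 of 19 matched promoters of further ATF4 pathway targets and in 5 of 12 of cytosolic tRNA synthetases. These are matches of letters in a window and not measured binding. A site outside the window, or one with other letters, would be missed, so no match does not mean no site.

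*Slc3a2* encodes the CD98 heavy chain, the membrane protein that several light chains need to carry large neutral, cationic or cystine substrates across the plasma membrane. It was lower in all 4 KO mice than in all 4 WT mice of every tissue. In liver, WT mice read 5.97, 6.33, 6.06 and 6.00 and KO mice 5.51, 5.56, 5.81 and 5.51. In eWAT, WT mice read 8.33, 8.56, 8.35 and 8.44 and KO mice 7.84, 8.24, 7.78 and 7.91. The nearest KO mouse in eWAT was the one numbered 2, whose macrophage marker level was also nearest to WT. In iWAT, WT mice read 7.92, 7.99, 8.44 and 8.16 and KO mice 7.42, 7.83, 7.65 and 7.91. In BAT, WT mice read 6.56, 7.10, 6.99 and 6.50 and KO mice 6.21, 6.18, 6.06 and 6.25. The space between the groups was widest in BAT, at 0.249, and narrowest in iWAT, at 0.011.

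The KO minus WT difference of *Slc3a2* was -0.49 ± 0.10 in liver, -0.48 ± 0.11 in eWAT, -0.42 ± 0.15 in iWAT and -0.61 ± 0.14 in BAT (log2 ± SE, 4 mice per group). As ratios of KO to WT these correspond to 0.711, 0.717, 0.745 and 0.654. The difference in BAT rested on WT mice that ranged more widely than the KO mice, with SDs of 0.30 and 0.08. With the macrophage markers as a covariate, the difference in eWAT was -0.17. With the B cell markers as a covariate in iWAT it was -0.43, and with the muscle markers in BAT -0.58. In BAT of KO mice the summed brown adipocyte markers were lower. There 6 of the 10 members had lower means, namely *Slc3a2*, *Hspa5*, *Asns*, *Atf4*, *Atf3* and *Ddit3*. The other 4, *Slc43a1*, *Trib3*, *Slc7a11* and *Xbp1*, had higher means. The part of these markers in the BAT differences was not tested. Without KO mouse 2, the eWAT difference was -0.58.

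*Slc43a1* encodes LAT3, a sodium-independent transporter of large neutral amino acids such as leucine that works without the CD98 heavy chain. It moved the other way and was higher in all 4 KO mice than in all 4 WT mice of every tissue. In liver, WT mice read 4.01, 3.89, 4.08 and 4.27 and KO mice 4.77, 4.27, 4.44 and 4.29. In eWAT, WT mice read 6.14, 5.63, 5.90 and 5.94 and KO mice 7.30, 6.65, 6.32 and 7.59. The KO mice of eWAT fell into a lower pair, numbered 2 and 3, and a higher pair, numbered 1 and 4. In iWAT, WT mice read 6.54, 5.46, 6.69 and 6.32 and KO mice 7.19, 6.85, 7.37 and 7.42. In BAT, WT mice read 4.09, 3.67, 4.06 and 3.35 and KO mice 4.10, 4.82, 4.14 and 4.45.

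The differences of *Slc43a1* were 0.38 ± 0.12 in liver, 1.06 ± 0.25 in eWAT, 0.96 ± 0.26 in iWAT and 0.59 ± 0.20 in BAT, or KO to WT ratios of 1.30, 2.08, 1.94 and 1.5. In liver and BAT the groups were separated by only 0.006, so that they lay apart there by less than the spread within either genotype. *Slc43a1* in BAT and liver, and *Slc3a2* in iWAT, were the members just inside the limit for lying apart. Just outside it were *Atf4* in eWAT, with a gap of -0.057, and in BAT, with -0.081, a negative gap being an overlap. *Hspa5* missed the limit in liver alone, with a gap of -0.209. With the macrophage markers as a covariate, the difference of *Slc43a1* was 0.43 in eWAT and 0.19 in liver.

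Across all genes, 0.118% lay apart in a single direction in all 4 tissues, 0.0771% below and 0.0406% above. *Slc3a2* was 1 of 19 genes below and *Slc43a1* 1 of 10 above, and as both were chosen for this, nothing is read from their place among them. The labels number the mice alike in each tissue without saying whether the same animals gave all 4 tissues. The tissues are therefore not taken as independent repeats of the comparison.

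**Figure D1:**
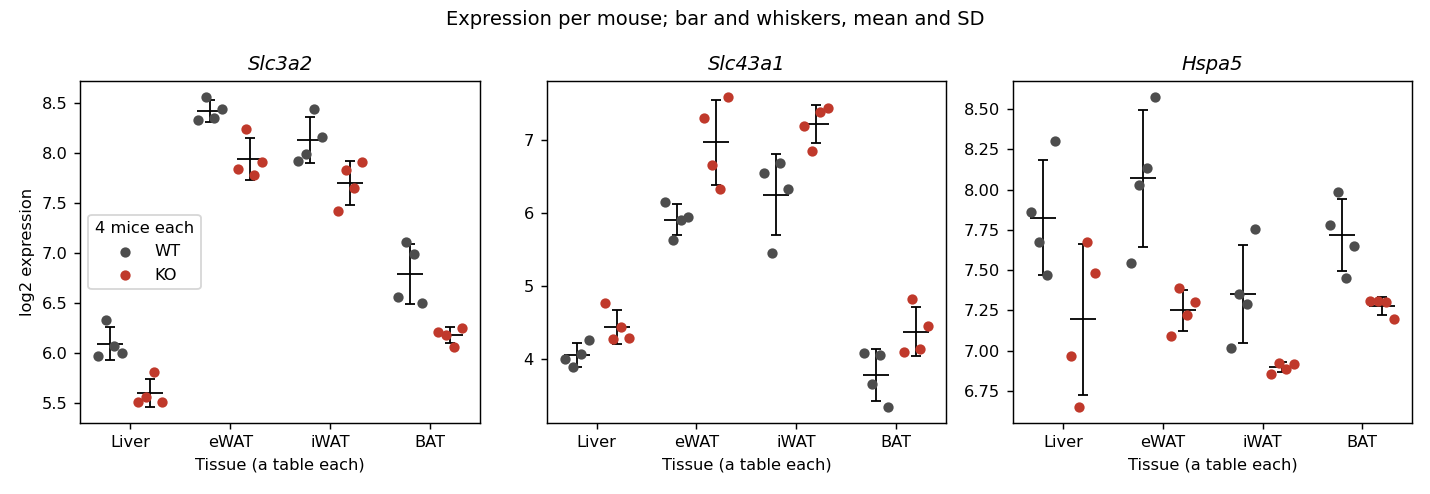
Log2 expression of *Slc3a2*, *Slc43a1* and *Hspa5* in each of 4 WT (grey) and 4 KO (red) mice per tissue; bars and whiskers are the mean and SD, the vertical scale differs between panels, and levels are not set against each other across tissues. KO mice lay below WT mice for *Slc3a2* and above them for *Slc43a1* in every tissue, while *Hspa5* lay below in the 3 fat depots and overlapped in liver.

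*Hspa5* encodes BiP, the HSP70 chaperone of the ER lumen that holds the stress sensors inactive until unfolded protein draws it away. It was lower in all KO mice than in all WT mice of the 3 fat depots, a pattern that 0.381% of all genes showed. In eWAT, WT mice read 7.54, 8.03, 8.13 and 8.58 and KO mice 7.09, 7.39, 7.22 and 7.30. In iWAT, WT mice read 7.01, 7.35, 7.29 and 7.76 and KO mice 6.86, 6.92, 6.89 and 6.92. In BAT, WT mice read 7.78, 7.99, 7.45 and 7.65 and KO mice 7.31, 7.31, 7.30 and 7.20. The KO mice were close together in each fat depot, with SDs of 0.13, 0.03 and 0.05 against 0.43, 0.31 and 0.22 among WT mice.

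The differences of *Hspa5* were -0.82 ± 0.19 in eWAT, -0.44 ± 0.11 in BAT and -0.46 ± 0.15 in iWAT. In liver, WT mice read 7.86, 7.67, 7.47 and 8.30 and KO mice 6.97, 6.65, 7.68 and 7.48, a difference of -0.63 ± 0.23. There KO mice 3 and 4 lay within the WT range and KO mice 1 and 2 below it. With macrophage markers as a covariate the values were -0.64 in eWAT and -1.12 in liver. *Hspa5* thereby kept more of its eWAT difference under that covariate than *Slc3a2* or *Slc43a1* did, a comparison of values that was not tested.

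*Xbp1*, the transcription factor that IRE1 activates by splicing, overlapped between genotypes in all 4 tissues. Its differences were -0.23 ± 0.20 in liver, 0.10 ± 0.12 in eWAT, -0.01 ± 0.19 in iWAT and 0.01 ± 0.11 in BAT. The arrays summarise the gene and do not separate its spliced from its unspliced form.

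Among the regulators, *Atf4* overlapped in all 4 tissues. The factor is controlled largely through translation, which RNA levels do not show. Its differences were -0.52 ± 0.16 in BAT, -0.04 ± 0.11 in liver, -0.19 ± 0.09 in eWAT and 0.01 ± 0.16 in iWAT. In BAT, WT mice read 6.24, 6.26, 6.35 and 5.68 and KO mice 5.27, 5.77, 5.70 and 5.72. WT mouse 4 lay within the KO range there and the other WT mice above it.

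*Ddit3* encodes CHOP, a transcription factor linked to cell death under lasting ER stress, and it lay apart in liver only. Liver WT mice read 4.27, 4.43, 4.41 and 4.66 and KO mice 3.95, 3.79, 4.11 and 3.76, a difference of -0.54 ± 0.11. Its differences in the fat depots were 0.11 ± 0.11 in eWAT, 0.16 ± 0.11 in iWAT and -0.27 ± 0.13 in BAT, with overlap in each. Whether the liver difference exceeds those of the fat depots was not tested.

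*Atf3*, an early stress-induced factor that macrophages also express, had the largest difference of any member in any tissue. In eWAT, WT mice read 8.36, 8.27, 8.53 and 8.31 and KO mice 4.99, 8.14, 7.17 and 4.69. The KO mice therefore ran from just below WT to far below it, in the order of their macrophage marker levels except for KO mice 1 and 4. The difference was -2.12 ± 0.67 (an SE of 0.84 without moderation), and -2.75 ± 0.49 without KO mouse 2. With the macrophage markers as a covariate it was 0.61, so its sign turned. In the other tissues *Atf3* overlapped, with differences of 0.09 ± 0.20 in liver, -0.85 ± 0.37 in iWAT and -0.54 ± 0.47 in BAT.

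*Trib3*, a pseudokinase induced by ATF4 and CHOP that restrains both and AKT, overlapped in all 4 tissues. Its differences were 0.26 ± 0.16 in liver, 0.32 ± 0.14 in eWAT, -0.13 ± 0.12 in iWAT and 0.29 ± 0.14 in BAT. The sign was positive in 3 tissues and negative in iWAT.

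*Asns* encodes asparagine synthetase, which makes asparagine from aspartate and glutamine and is among the best known ATF4 targets. It lay apart in opposite directions in eWAT and BAT. In eWAT, WT mice read 5.92, 5.81, 5.93 and 5.98 and KO mice 7.11, 6.03, 6.21 and 7.58. In BAT, WT mice read 6.52, 6.54, 6.47 and 6.46 and KO mice 6.21, 6.21, 6.30 and 6.09. KO mice 1 and 4 of eWAT stood far above the WT mice while KO mice 2 and 3 were close to them, whereas the BAT groups were tight. The differences were 0.82 ± 0.30 in eWAT and -0.30 ± 0.08 in BAT, and the difference between the tissues was not tested.

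With the macrophage markers as a covariate, the *Asns* difference in eWAT was -0.22 and had turned its sign. The muscle markers as a covariate in BAT left it at -0.29. In liver and iWAT, *Asns* overlapped, with differences of 0.41 ± 0.26 and 0.47 ± 0.25.

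*Slc7a11* encodes xCT, the cystine and glutamate exchanger that pairs with the CD98 heavy chain. Its mean was below the median of all genes on the arrays of every tissue, so its values are close to the lower end of what the arrays resolve. Its differences were 0.09 ± 0.08 in liver, -0.23 ± 0.09 in eWAT, -0.16 ± 0.30 in iWAT and 0.07 ± 0.08 in BAT. It lay apart in eWAT, where WT mice read 1.67, 1.80, 1.77 and 2.02 and KO mice 1.56, 1.65, 1.60 and 1.54.

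**Figure D2:**
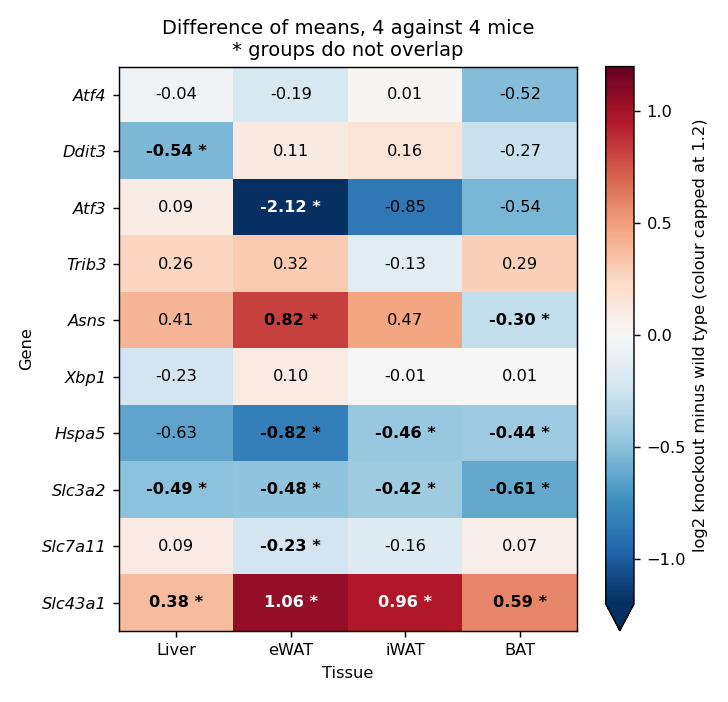
KO minus WT difference of means (log2, 4 against 4 mice) for the 10 genes in each tissue; an asterisk and bold type mark groups that do not overlap, and colour is capped at 1.2 so that *Atf3* in eWAT (-2.12) lies beyond it. *Slc3a2* and *Slc43a1* are marked in all 4 columns, *Hspa5* in the 3 fat depots, and *Atf4*, *Trib3* and *Xbp1* in none.

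Counted over the members, 1 lay apart above and 2 below in liver, where 7.78% of all genes lay apart, 3.62% above and 4.16% below. In eWAT the counts were 2 above and 4 below, with 21.6% of all genes apart, 8.63% above and 13.0% below. In iWAT they were 1 above and 2 below, with 8.15% of all genes apart, 4.29% above and 3.86% below. In BAT they were 1 above and 3 below, with 7.23%, 3.31% above and 3.92% below. Because these differences chose the members, nothing is read from the counts. The median difference over the 10 members was 0.02 in liver, -0.05 in eWAT, -0.07 in iWAT and -0.28 in BAT, beside 0.01, 0.03, 0.02 and 0.00 over all genes.

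The KO mice differed among themselves in several members in eWAT. There *Atf3* had an SD of 1.68 among KO mice and 0.11 among WT mice, and *Asns* one of 0.73 and 0.07. *Slc43a1* followed with 0.58 and 0.21, while *Slc3a2* had 0.21 and 0.11. KO mice 1 and 4, with the lowest macrophage marker levels, were the 2 highest for *Asns* and *Slc43a1* and the 2 lowest for *Atf3*. For *Slc3a2* the lowest was KO mouse 3. That mouse also had the highest summed plasma cell markers in eWAT, at 8.37 against at most 5.99 in the other mice. Its B cell markers were highest too, at 7.10 against at most 5.42. The part of the macrophage, plasma cell and B cell markers in these differences was not tested.

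**Figure D3:**
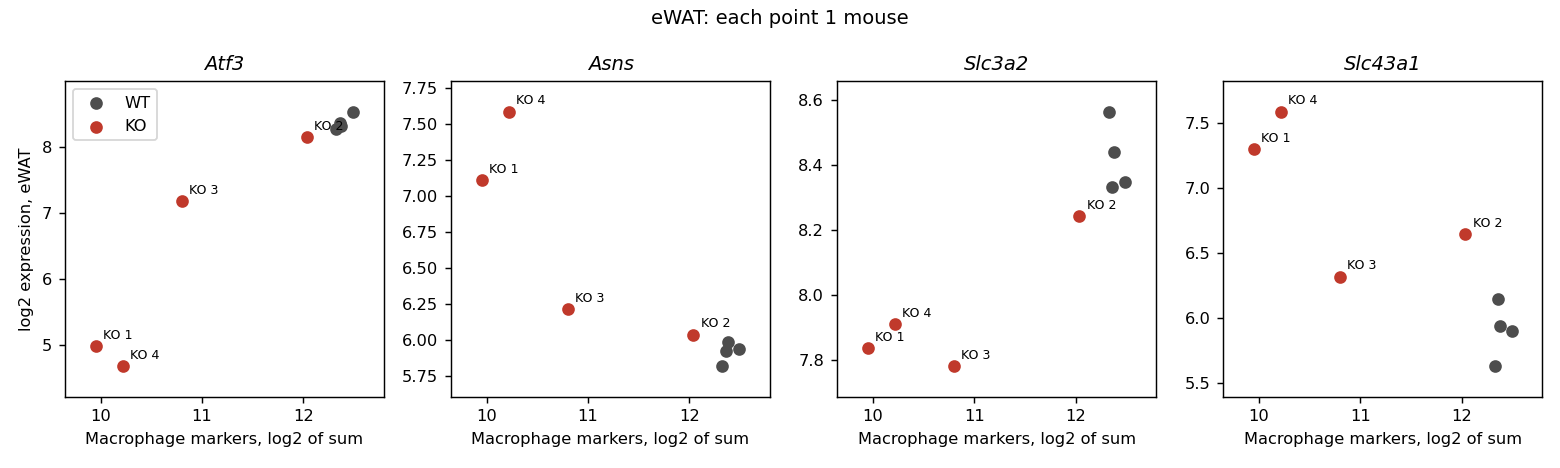
Log2 expression in eWAT of *Atf3*, *Asns*, *Slc3a2* and *Slc43a1* in each mouse (vertical) against the summed level of 9 macrophage markers on the log2 scale (horizontal); WT grey, KO red with mouse numbers. WT mice lie together at 12.33 to 12.49, and KO mouse 2, at 12.04, lies nearest to them for *Atf3*, *Asns* and *Slc3a2*.

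The remaining genes of these pathways were followed in 6 lists of 132 genes, all measured, and tested with limma with p-values adjusted over all 24646 genes. In eWAT, 39 fell and 6 rose in KO mice at an adjusted p under 0.05, or 34.1% of the lists beside 15.2% of all genes, of which 10.7% fell and 4.57% rose. The 15.2% is over all genes, dim ones included. With dim genes left out, 51 list genes and 3830 of all genes were called in eWAT, out of fewer genes than the 132 and 24646. Only genes with a mean level at or above the median of all genes were kept. Of the 6 lists, in the order described below, 11, 20, 20, 30, 21 and 11 genes were kept. That filter removed a larger share of all genes than of the lists, which narrows the gap. The lists were chosen with earlier results of these data known, so these shares are no test of the lists. In liver, iWAT and BAT limma called 0 of the 132, with 30, 28 and 27 at an unadjusted p under 0.05. Of all 24646 genes, 3270, 3803 and 3127 reached that unadjusted level. The deleted gene *Gpr146* was itself not called in iWAT or BAT, so the lack of calls there does not show a lack of differences. Among all genes it called 0.665% in liver (0.162% higher and 0.503% lower), 0.0% in iWAT and 0.0284% in BAT (0.00406% higher and 0.0243% lower). Of the 45 called in eWAT, 18 stayed called whichever single mouse was left out, and 0 were called with macrophage markers as a covariate, under which 1 of all genes was called.

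Among the eIF2 kinases and eIF2 machinery, 2 of 12 genes fell and 1 rose in eWAT, or 25.0% of the list beside 15.2% of all genes. *Eif2ak1*, the haem-regulated eIF2 kinase HRI, fell by 0.54 on the log2 scale (limma, adjusted p = 0.0263). *Eif2s1*, the eIF2 subunit that the kinases phosphorylate, fell by 0.56 (limma, adjusted p = 0.0181). *Ppp1r15b*, a partner of the phosphatase that reverses this, rose by 0.35 (limma, adjusted p = 0.0273). None of the 3 stayed called whichever mouse was left out. *Eif2ak1* also lay apart below in iWAT, at -0.30, and in BAT, at -0.19, where it was not called, and *Eif2b2*, an exchange factor subunit, lay apart in BAT at -0.52.

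Of 22 further ATF4 pathway targets, 3 fell and 1 rose in eWAT, or 18.2% of the list, close to the 15.2% of all genes. The list median was -0.01, close to the 0.03 of all genes. *Eif4ebp1*, a translation repressor that ATF4 induces, rose by 0.71 (limma, adjusted p = 0.00923). *Aldh18a1*, which starts proline synthesis, fell by 1.21 (limma, adjusted p = 0.00876). *Gdf15*, a stress-induced hormone, fell by 0.46 (limma, adjusted p = 0.0274), and *Shmt2* of mitochondrial one-carbon metabolism fell by 0.38 (limma, adjusted p = 0.0401). *Eif4ebp1* and *Aldh18a1* stayed called whichever mouse was left out. Without a call, *Phgdh*, which starts serine synthesis, lay apart in iWAT at 0.64, and *Cebpb* and *Sesn2* lay apart in BAT at -0.70 and -0.96.

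Of 20 cytosolic tRNA synthetases, which charge tRNA with amino acids, 4 fell and 0 rose in eWAT. They were the isoleucine enzyme *Iars*, which fell by 0.82 (limma, adjusted p = 0.00923), *Rars*, by 0.55 (limma, adjusted p = 0.0196), *Farsb*, by 0.44 (limma, adjusted p = 0.0317), and *Qars*, by 0.35 (limma, adjusted p = 0.0326). *Iars* alone of these stayed called whichever mouse was left out. The 4 make up 20.0% of the list, beside 15.2% of all genes called in eWAT. After quantile normalization 2 fell and 1 rose, and the list median in eWAT went from -0.13 to 0.03. In BAT, *Iars* lay apart at -0.51 and *Nars* at -0.30, and in iWAT *Sars* lay apart at 0.30, none of them called.

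Of 32 further ER chaperones and unfolded protein response genes, 11 fell and 0 rose in eWAT. *Wfs1*, a membrane protein of the ER, fell by 1.87 (limma, adjusted p = 0.017), from between 7.74 and 8.01 in WT mice to between 5.08 and 7.33 in KO mice. *Sdf2l1*, a cofactor of ER protein folding, fell by 1.42 (limma, adjusted p = 0.0184). *Mbtps2*, the protease that cuts ATF6 in the Golgi, fell by 0.76 (limma, adjusted p = 0.00855). *Sec61a1*, the channel through which proteins enter the ER, fell by 0.71 (limma, adjusted p = 0.00963). The median of the list was -0.32 in both liver and eWAT, and -0.19 in iWAT and -0.06 in BAT. In liver it was -0.18 without KO mouse 2 and -0.56 with macrophage markers as a covariate. Quantile normalization gave medians of -0.18 in eWAT and -0.07 in iWAT, and 7 lower and 1 higher calls in eWAT. With dim genes left out, the list medians were -0.33 in liver, -0.34 in eWAT, -0.20 in iWAT and -0.09 in BAT. Those of all genes were then -0.02, -0.08, -0.11 and -0.05. In liver all 32 means were lower in KO mice, yet 0 lay apart and 0 were called. There 11 of the 32 were at an unadjusted p under 0.05 in limma, beside 3270 of all 24646 genes. In iWAT 7 lay apart below and 1 above, among the former them *Mbtps2* at -0.68 and *Atf6* at -0.57, with 0 called. In BAT 1 lay apart, *Atf6b* at -0.41. The *Hspa5* element shown above occurred in 8 of the 25 list promoters that could be matched.

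Of 34 further amino acid transporters, 13 fell and 4 rose in eWAT. *Slc7a7*, a light chain for export of cationic amino acids, fell by 1.63 (limma, adjusted p = 0.0109). *Slc38a1*, a glutamine carrier, fell by 1.63 (limma, adjusted p = 0.0133), and *Slc7a1*, a cationic amino acid importer, fell by 0.96 (limma, adjusted p = 0.00935). *Slc1a3*, a glutamate and aspartate carrier, rose by 1.24 (limma, adjusted p = 0.0104), from between 6.53 and 6.96 in WT mice to between 7.65 and 8.71 in KO mice. Of the 17 calls, 10 stayed whichever mouse was left out. Outside eWAT the transporters that lay apart were not called, among them *Slc7a8* at -1.55 and *Slc6a9* at 0.45 in iWAT, and *Slc36a2* at -0.72 and *Slc38a2* at -0.66 in BAT.

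The light chains that pair with the CD98 heavy chain were grouped after their values were seen. Of 6 such genes, *Slc7a11* included, 1 lay apart above and 4 below in eWAT, 1 lay apart below in iWAT and 0 in liver and BAT. *Slc7a5*, the leucine transporter LAT1, read 5.35, 5.14, 5.0 and 5.06 in WT mice and 4.37, 4.38, 4.35 and 4.38 in KO mice of eWAT. The KO values lay within a narrow band below every WT value, and the gene fell by 0.76 (limma, adjusted p = 0.00566). *Slc7a10*, a carrier of small neutral amino acids, rose by 0.76 (limma, adjusted p = 0.00992). The heavy chain gene thus lay apart in liver and BAT without any of these light chain genes doing so.

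Of 12 glutathione and NRF2 genes, 6 fell and 0 rose in eWAT, and 6 fell and 1 rose there after quantile normalization. *Hmox1*, which breaks down haem and is abundant in macrophages, fell by 2.19 (limma, adjusted p = 0.0097) and lay apart below in all 4 tissues. Its WT mice read 7.70, 8.51, 7.70 and 8.52 and its KO mice 5.52, 7.05, 5.47 and 5.63 in eWAT. Its differences elsewhere were not called and were -1.62 in liver (limma, adjusted p = 0.0522), -0.84 in iWAT and -1.64 in BAT. *Gclm*, a subunit of the enzyme that starts glutathione synthesis, fell by 0.83 (limma, adjusted p = 0.0266), *Srxn1* by 0.77 (limma, adjusted p = 0.0189) and *Txnrd1* by 0.67 (limma, adjusted p = 0.0196). *G6pdx*, which supplies NADPH, fell by 0.54 (limma, adjusted p = 0.0106) and lay apart below in liver, eWAT and iWAT. *Hmox1*, *G6pdx* and *Eif2ak1* were the 3 of 132 pathway genes that lay apart in 1 direction in at least 3 tissues. The groups of *Eif2ak1* in iWAT were separated by only 0.003. Of all genes, 0.118% lay apart in 1 direction in all 4 tissues. The share for at least 3 tissues was not taken, so nothing is read from this count.

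**Figure D4:**
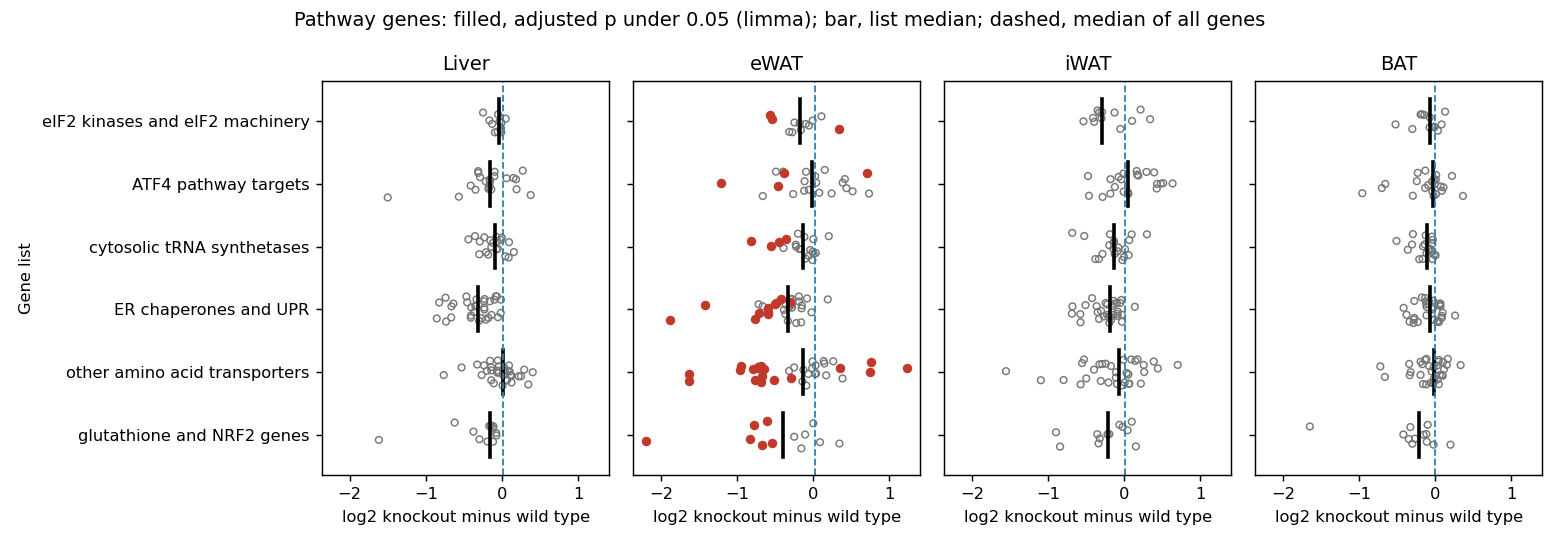
KO minus WT difference (log2, horizontal) of every gene in the 6 pathway lists (rows) in each tissue; filled points passed an adjusted p under 0.05 in limma, bars are list medians and the dashed line is the median of all genes. Filled points occur only in eWAT, 39 below and 6 above 0, and the ER chaperone list lies mostly below 0 in liver, eWAT and iWAT. Other lists lean the same way, among them 12 of 12 glutathione and NRF2 genes in liver and 19 of 20 tRNA synthetases in BAT.

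The pattern of *Slc3a2* over the 32 arrays was set against all other genes, after taking each array's deviation from the mean of its genotype in its tissue, which removes the difference between genotypes. The genes most like it were *Akr1a1* (Pearson's r of deviations 0.80), *Ehbp1l1* (0.78), *Atp8b1* (0.77), *Ulk2* (0.73) and *Fzd1* (0.72). For *Slc43a1* they were *Eci3* (0.83), *Gzf1* (0.80), *Mccc1* (0.80), *Selenbp1* (0.80) and *C2* (0.79). The pooled values hide differences between tissues, since *Selenbp1*, for one, had an r of -0.05 in liver. Among members, *Slc3a2* was most like *Atf4*, at 0.48, with -0.15 in liver and 0.85 in iWAT. *Slc43a1* was most like *Asns*, at 0.57, with 0.91 in eWAT, 0.79 in iWAT, -0.04 in liver and -0.13 in BAT. *Slc3a2* and *Slc43a1* had an r of 0.07 with each other within genotypes, a value that leaves out their opposite differences between genotypes. The arrays of a number may come from the same mouse, so the points are not independent and these values are descriptions.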

How the data were processed

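The authors deposited 1 table per tissue of log2 expression values per named gene, 8 arrays each, made from 100 ng of total RNA per array. The array normalization and software are not given in the sources used here, and no column of the authors' own comparisons was present. Labels gave tissue and genotype. The titles of the liver KO samples name both genotypes, and their other labels were followed.

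Entries with a blank or numeric name (1 or 2 per table) were left out, leaving 24646 genes. The deposited values came as 1 row per gene. Of these, 840 carried a non-integer identifier, which was read as an average of several probe sets made before deposition. No filter on low values was applied, and of the 10 members 9 passed the one tried as an alternative in each tissue (*Slc7a11* did not). Array medians spanned 2.82 to 3.73 and pairs of arrays of a tissue correlated at r of 0.939 to 0.995. The number of arrays limits precision. KO and WT were compared per tissue with limma 3.58.1 in R 4.3.3 (lmFit, eBayes, Benjamini-Hochberg over all genes, threshold 0.05), a procedure tested on simulated data. SEs are limma's moderated SEs of the KO minus WT difference, smaller than unmoderated ones for the most variable genes. The members, 6 pathway lists and 11 marker lists (a covariate used 1 of them per tissue: macrophage in liver and eWAT, B cell in iWAT, skeletal muscle in BAT) were chosen with earlier results of these data known. Marker genes matched under older names where needed.

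Named were *Gpr146* and the members, and per list and tissue up to 4 called genes that lay apart with the largest differences. Where a tissue had at most 10 calls, up to 2 that lay apart were named. Also named were pathway genes apart in 1 direction in at least 3 tissues, and the 5 genes most like *Slc3a2* and *Slc43a1*. *Slc7a5* and *Slc7a10* were named after their values were seen. Alternatives were quantile normalization, equal medians, leaving out dim genes, trend with robust fitting, array weights, a block for the replicate number, marker covariates, the methods' t-test and leaving out each array.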

Additional observations from a re-analysis of the deposited data

Results flagged for a closer look

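Among 184 groups of 4 mice checked for 1 mouse far from the others, 15 had such a mouse, and chance alone flags about 1 in 20. For members these were *Atf4* in eWAT KO mouse 1 (6.54), BAT WT mouse 4 (5.68) and BAT KO mouse 1 (5.27), *Xbp1* in eWAT WT mouse 4 (7.91) and iWAT KO mouse 2 (7.01), *Hspa5* in BAT KO mouse 4 (7.20) and *Slc3a2* in liver KO mouse 3 (5.81). For pathway genes in eWAT they were *Aldh18a1* in WT mouse 3 (4.21) and KO mouse 2 (3.91), *Gclm* in KO mouse 3 (5.52), *Hmox1* in KO mouse 2 (7.05) and *Sdf2l1* in WT mouse 4 (6.80). Elsewhere they were *G6pdx* in liver WT mouse 1 (3.34), *Mbtps2* in iWAT KO mouse 1 (4.07) and *Slc6a9* in iWAT KO mouse 3 (3.48).

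For 3 genes all KO mice lay above WT in 1 tissue and below in another. *Asns* differed by 0.82 in eWAT and -0.30 in BAT, *Ppp1r15b* by 0.35 in eWAT and -0.14 in BAT, and *Slc6a9* by -0.53 in liver and 0.45 in iWAT. The difference between tissues was not tested.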

How the results depend on the processing

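The sign of the difference of *Slc3a2*, *Slc43a1* and *Hspa5* was the same under all alternatives in all 4 tissues. Members that lay apart turned sign under 1 alternative, macrophage markers as a covariate in eWAT, at 0.61 for *Atf3* and -0.22 for *Asns*. That covariate carries the genotype with it in eWAT, since all 9 markers lay apart. Under marker covariates the pathway calls in eWAT went from 45 to 0, and calls among all genes from 3758 to 1 there, from 164 to 13 in liver, from 0 to 28 in iWAT and from 7 to 0 in BAT. With dim genes left out, and so over fewer genes, liver had 252 calls among all genes and 2 in the pathways. Equal medians gave 2 pathway calls in liver and 0 of all genes in BAT. Quantile normalization gave 0 in BAT, and in eWAT 1830 higher and 1912 lower against 1126 and 2632 (pathways 10 and 31 against 6 and 39). It also brought *Slc3a2* and *Hspa5* in iWAT to -0.27 and -0.29. The replicate block gave 1 pathway call in liver, 1 call among all genes in iWAT and 0 in BAT. Deviations of mice with the same number correlated between -0.38 and 0.67 over the 4 tissues. They exceeded 0.1 in 1 of 4 pairs in liver and in eWAT, and in 3 of 4 in iWAT and in BAT. Of 8 arrays, 4 (liver), 5 (eWAT), 5 (iWAT) and 4 (BAT) correlated best with their own number in the other genotype. The main fit did not take the numbers as pairs, and whether arrays of a number share a structure was not tested. The methods' t-test with Benjamini-Hochberg adjustment called 2 genes in liver, 38 in eWAT (1 in the pathways), 1 in iWAT and 0 in BAT, and without adjustment 2901, 6798, 3167 and 2803, with 17 pathway genes in liver, 22 in iWAT and 21 in BAT. Leaving out 1 mouse moved calls among all genes to between 41 (WT 3) and 300 (KO 2) in liver, 1448 (WT 2) and 5430 (KO 2) in eWAT, 0 and 227 (KO 2) in iWAT, and 0 and 80 (WT 1) in BAT. Pathway calls ranged from 18 (WT 2) to 57 (KO 2) in eWAT, from 0 to 1 in liver (WT 4, KO 2 or KO 3 left out), 0 to 2 in iWAT (KO 2) and 0 to 1 in BAT (WT 1). The eWAT pathway calls were also 21 without WT 4, 27 without KO 1 and 25 without KO 4. Other causes of these changes were not tested.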
